A study of Mus musculus with 4 samples.

Results

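Among 31989 cells of 4 single-cell RNA sequencing libraries of mouse embryonic stem cells (mESC), 2495 cells were low in transcripts of both S-phase and G2/M genes. A cell belonged to this set when it lay in the lowest tertile of its own library for the share of its unique molecular identifiers (UMIs, 1 per captured transcript) from 9 S genes and also for the share from 8 G2/M genes. The S genes were Mcm2 to Mcm7, Pcna, Tyms and Rrm2, and the G2/M genes were Top2a, Cdk1, Ccnb1, Ccnb2, Ube2c, Cenpf, Cenpe and Tpx2. These cells are called low-low cells here, and each library's low-low cells were set against all its other kept cells. Measured values of the 17 rule genes chose the cells, so their levels are description and support nothing.

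The labels list 2 replicates of wild-type (WT) E14tg2a.4, a male mESC line, and 2 of a line derived from it that carries 1 truncated copy of Srrm2 through a gene trap (Srrm2 hKO, line CG0630, so 1 line stands for the genotype). Srrm2 encodes a large protein of nuclear speckles and the spliceosome. Before collection all cells grew in serum-free ESGRO medium with LIF, for 24 h or 72 h by the labels, while the study's methods state a different time, under regular conditions, for the single-cell cultures. The matrix numbers its libraries 1 to 4, and no source used here ties a number to a labelled sample. No library was therefore given a genotype, no comparison of genotypes was made and which libraries are replicates of each other is not known here.

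Proliferating cells pass through G1, S, G2 and mitosis. Genes for replication licensing, nucleotide supply and replication forks are transcribed from late G1 into S phase, largely through E2F factors, and genes for the spindle, kinetochores and cytokinesis peak in G2 and mitosis through the MMB and FOXM1 complexes. Between mitosis and the next S phase both programmes are low, and they are also low in cells that have left the cycle, where cyclin-dependent kinase (CDK) inhibitors such as p21 (Cdkn1a) and p16 (Cdkn2a) hold back E2F. Mouse embryonic stem cells are known for a short G1, weak control by the retinoblastoma protein and low levels of these inhibitors.

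Low-low cells numbered 545 of 8118 kept cells in library 1, 627 of 8514 in library 2, 768 of 7893 in library 3 and 555 of 7464 in library 4. These shares were 6.71% (exact 95% binomial interval 6.18 to 7.28%), 7.36% (6.82 to 7.94%), 9.73% (9.08 to 10.4%) and 7.44% (6.85 to 8.05%). The product of the shares of both lowest tertiles was 11.1% in every library, above each observed share. Cells in the lowest S and highest G2/M tertiles were more common (5093 in all), as were cells in the highest S and lowest G2/M tertiles (4947). Intervals in this text cover counting error only, and cells of 1 library are not replicates, so no p-value is given.

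The limits were 1.55, 1.63, 1.45 and 1.45 S UMIs per 1000 UMIs of a cell in libraries 1 to 4, and 1.53, 1.91, 1.56 and 1.69 G2/M UMIs per 1000. In library 1 the low-low cells nearest the S limit had 1.5457 to 1.5507 S UMIs per 1000, and the nearest cells outside it with low G2/M shares had 1.5515 to 1.5569. A low-low cell held a median of 20, 26, 14 and 21 S UMIs against 34, 41, 34 and 37 in other cells. For G2/M genes the medians were 16, 28, 12.5 and 22 against 40, 53, 44 and 47. A few UMIs thus moved a cell across the limits. The density of cells had no gap at the limits. Library 3 held a second crowd of cells near 0 on both axes, where the other libraries had a few cells each.

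**Figure D1:**
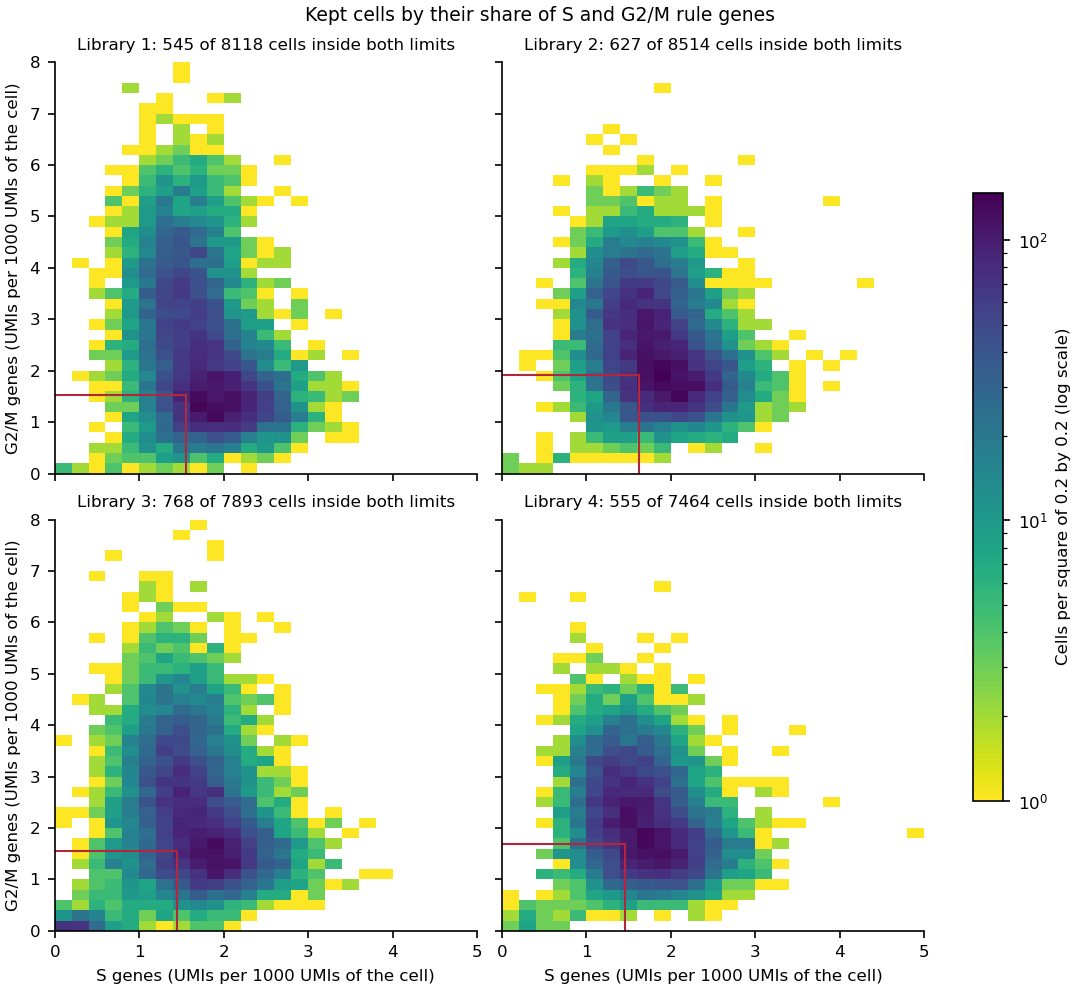
Kept cells of each library by their S share (x axis) and G2/M share (y axis), in UMIs per 1000 UMIs of the cell, with colour for the number of cells per square on a log scale and red lines at the limits of the lowest tertiles. The 545, 627, 768 and 555 low-low cells lie within the red lines, and library 3 has a separate crowd at the origin.

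Low-low cells were also shallower. Their median UMI count was 14839, 18697, 17085.5 and 17516 in libraries 1 to 4, against 18706, 22180.0, 19634 and 21798 in other cells, a ratio of 0.793, 0.843, 0.870 and 0.804. At a fixed 5000 UMIs per cell they showed 1819, 1925, 1946.5 and 1928 genes against 1885, 1995, 1915 and 1990, and their median mitochondrial share was 5.55, 3.99, 4.15 and 3.38% against 5.40, 4.10, 4.53 and 3.52%. The depth gap followed the G2/M genes in part. Among cells of the lowest G2/M tertile in library 1, the median was 14839 UMIs in the lowest S tertile, 15996.5 in the middle and 15856 in the highest. These medians were 18697, 19396 and 18977 in library 2 and 17516, 18840 and 18416 in library 4. In library 3 low-low cells were the deepest of the 3, at 17085.5 against 16531 and 16287. Fewer transcripts per cell and poorer capture cannot be told apart in these counts. Among all 41142 barcodes, 160 distinct sequences occurred in more than 1 library, 158 of them in 2 libraries and 2 in 3. Among kept cells 105 distinct sequences did so, and 10 low-low cells carried such a sequence.

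To see how firmly a cell kept its place, the UMIs of each cell were split at random into 2 equal parts and the rule was applied to each. Of cells chosen on the first part, 29.3, 31.2, 54.0 and 31.0% in libraries 1 to 4 were chosen again on the second, against 6.25, 6.50, 5.52 and 6.64% of the cells not chosen at first. In the second part the G2/M rule genes of the chosen cells were lower by a log2 ratio of -1.06, -0.67, -1.38 and -0.71, and the S rule genes by only -0.05, -0.14, -0.61 and -0.23. The low G2/M share thus recurred in UMIs the rule had not seen, while the low S share did so weakly outside library 3. Outside library 3 most cells chosen on the first part were not chosen again, and the repeat rate of cells chosen on all their UMIs was not measured.

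G2/M genes outside the rule were lower in the low-low cells of every library. A list of 31 spindle, kinetochore and cytokinesis genes summed to 2136, 2904, 1791 and 2699 counts per 1000000 UMIs (CPM) in low-low cells of libraries 1 to 4, against 3974, 4141, 3949 and 3965 CPM in other cells. The log2 ratios were -0.90 (95% interval -0.92 to -0.87), -0.51 (-0.53 to -0.50), -1.14 (-1.16 to -1.12) and -0.55 (-0.57 to -0.54). All 31 genes were lower in every library, where 31.1% of the 9517 genes with at least 500 counts in each library were so. Of the 31, 12 were at least 1.5-fold lower in every library, against a background of 0.315% (30 of 9517 genes), and 26 were lower by at least 0.32 on the log2 scale, against 1.72%. The median gene of the list had a log2 ratio of -0.92, -0.56, -1.30 and -0.61, and the median of all genes compared was -0.05, -0.06, -0.04 and -0.05. Against other cells matched on UMI count the list stayed lower, at -0.73, -0.43, -1.09 and -0.47, with 13 genes of all compared 1.5-fold lower in every library (0.137%) and 32 higher (0.336%).

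Nusap1, which binds and bundles spindle microtubules, stood at 69.3, 75.0, 46.3 and 72.2 CPM in low-low cells and at 203, 149, 163 and 134 CPM in other cells. Low-low cells were chosen for low G2/M transcripts. Against other cells of the lowest G2/M tertile, Nusap1 was not lower in at least 1 library. Prc1, a microtubule cross-linker of the central spindle, stood at 67.8, 101, 53.4 and 102 CPM against 178, 179.8, 171 and 200.4 CPM. Mki67, the proliferation antigen that coats mitotic chromosomes, stood at 56.0, 105, 46.8 and 107 CPM against 129, 187, 133 and 188 CPM. Plk1, a kinase of mitotic entry and exit, stood at 31.5, 60.9, 33.5 and 69.1 CPM against 98.0, 112, 107 and 116 CPM. In each of these genes libraries 1 and 3 had the lower values among low-low cells.

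The 30 genes at least 1.5-fold lower in every library included 12 of the list and 18 others. The count fell to 4 with membership at 5000 UMIs per cell, to 5 with tertiles set within UMI deciles, to 13 against cells matched on UMI count or with split UMIs, and to 1, none of the 30, against other cells of the lowest G2/M tertile, and it rose to 48 without library 2. Against those of the lowest G2/M tertile Nusap1, Hyls1, Kpna2, Arhgef39 and Prc1 were not lower in at least 1 library. The 10 with the greatest smallest change were Gm10184, Nusap1, Hyls1, Kpna2, Arhgef39, Prc1, Mki67, Knl1, Aspm and Incenp. Kpna2, an importin alpha, had log2 ratios of -1.23, -0.88, -1.52 and -1.05, and Aspm, a protein of spindle poles, had -1.32, -0.76, -1.68 and -1.15. Knl1, the kinetochore scaffold that recruits the Bub1 checkpoint kinase, stood at 32.8, 42.5, 19.9 and 40.0 CPM against 66.1, 72.5, 56.4 and 70.2 CPM. Hyls1, a centriole protein, was at 2.91, 5.29, 4.31 and 6.66 CPM against 14.7, 12.0, 13.9 and 12.3 CPM. Gm10184, a predicted gene at 1.63 to 3.95 CPM in low-low cells, is uncertain, since a predicted gene may share reads with a similar copy. Further genes of the 30 were the mitotic kinases Aurka, Aurkb and Nek2, the motor genes Kif4, Kif11, Kif14 and Kif18a, the cytokinesis regulator Ect2 and the cyclin gene Ccnf.

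Many promoters of the 30 genes shared short sequences. The 30 genes were called in cells chosen for low G2/M transcripts, and some are on the list of mitotic genes. Their letters thus describe these genes and are no separate evidence on low-low cells. Against other cells of the lowest G2/M tertile, none of the 30 was 1.5-fold lower in every library. RefSeq promoters (GRCm38.p6, 250 bases before to 50 after the start) were given for 24 of the 30 genes and for 7602 of the genes compared. The letters TTTGAA, the core of the cell cycle homology region through which the MMB complex is known to bind mitotic genes, occurred on either strand in 18 of the 24 (75%), against 13.9% of the promoters of the genes compared and 20.2% of the 27025 genes with a promoter. CCAAT occurred in 20 of the 24 (83.3%) against 44.2%, and the palindrome TTCGAA in 0 of the 24 against 2.63%. Of the 38 genes that were higher in low-low cells, 29 had a promoter, of which 2 (6.90%) held TTTGAA and 8 (27.6%) held CCAAT. Nusap1 and Hyls1 were among the lower genes whose promoter lacked TTTGAA. A match is a description of these letters and not a site in use. Windows of 30 bases are shown for lower genes from several chromosomes because they let the shared letters be read, with TTTGAA, or TTCAAA where it lies on the other strand, in capitals and each window written along the strand of its gene.
Kpna2, chr11:106999543-106999572, minus strand: cctaacgtgtttTTCAAAcctaccaatgaa
Mki67, chr7:135716478-135716507, minus strand: ttagcgccagaaTTTGAAccgccgttttgg
Plk1, chr7:122159453-122159482, plus strand: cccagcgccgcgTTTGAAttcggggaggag
Aspm, chr1:139454767-139454796, plus strand: ggaggcgcgataTTTGAAccgagcaaaagc
Kif11, chr19:37376351-37376380, plus strand: tcgtctccatttTTCAAAattgaggcgcgg
Kif4, chrX:100626072-100626101, plus strand: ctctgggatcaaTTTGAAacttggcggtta

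S genes outside the rule were less changed. A list of 31 replication genes summed to 3339, 3876, 2186 and 3462 CPM in low-low cells against 3613, 4394, 3577 and 4240.4 CPM in other cells, with log2 ratios of -0.11 (95% interval -0.13 to -0.10), -0.18 (-0.19 to -0.17), -0.71 (-0.73 to -0.69) and -0.29 (-0.31 to -0.28). None of the 31 genes was 1.5-fold lower in every library (0.315% of all genes compared) and 19 were lower there by any amount (31.1% of all). Hells, a chromatin remodeller of S phase, stood at 305, 515, 220.4 and 624 CPM against 337, 582, 364 and 713 CPM, with log2 ratios of -0.14, -0.18, -0.72 and -0.19. Ccne1, the cyclin that drives entry into S phase, stood at 88.9, 200.2, 77.5 and 168 CPM against 102, 241, 137 and 230.0 CPM. Gins2, a subunit of the replicative helicase, did not keep 1 direction, with 87.5, 59.7, 66.9 and 67.3 CPM against 79.0, 59.9, 81.7 and 68.4 CPM. Library 3 had the greatest differences in Hells and Ccne1.

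The size of the S difference depended on the reference cells, which include cells rich in G2/M transcripts. Set only against other cells of the lowest G2/M tertile of their library, low-low cells had log2 ratios of -0.29, -0.33, -0.89 and -0.45 for the S list. All 30 list genes with enough counts were then lower in every library, against 32% of the 6323 genes compared, and 11 were lower by at least 0.32 on the log2 scale, against 0.759%. Of all genes compared this way, 1 was 1.5-fold lower (0.0158%) and 9 were higher (0.142%). With this reference the G2/M list differed by -0.10, -0.11, -0.48 and -0.16. In library 1 the S list stood at 3339 CPM in low-low cells, and at 3872 and 4230.0 CPM in the middle and highest S tertiles of cells with low G2/M. Against cells of the lowest S and highest G2/M tertiles, the S list of low-low cells differed by 0.13, 0.06, -0.44 and -0.03 on the log2 scale. Except in library 3, low-low cells thus held S transcripts near the level of these cells, which were also chosen for a low S share. Cells of the highest G2/M tertile with more S transcripts stood higher. In libraries 1 to 4 their S list was at 3352, 4266, 3402 and 4107 CPM in the middle S tertile. In the highest S tertile it was at 3657, 4718, 3804 and 4658 CPM.

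**Figure D2:**
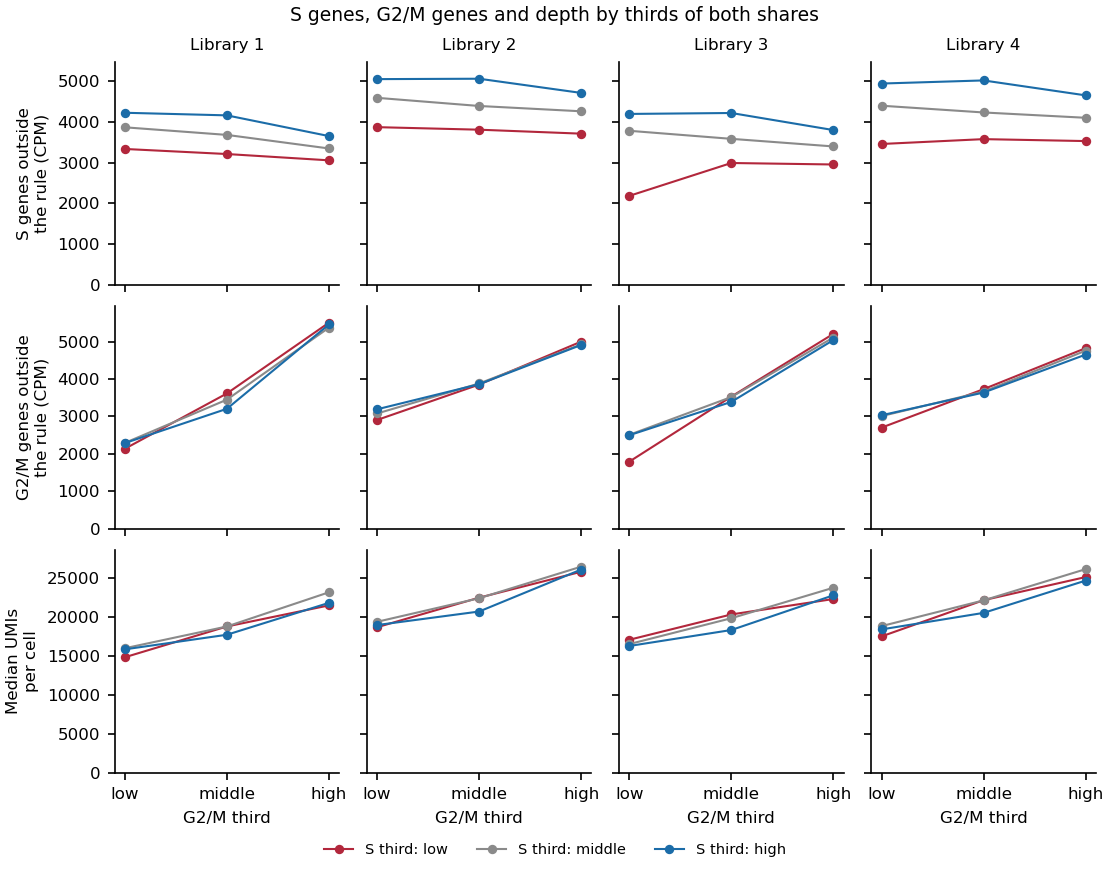
Level of S genes outside the rule (top row, CPM), G2/M genes outside the rule (middle row, CPM) and median UMIs per cell (bottom row) by G2/M tertile (x axis) and S tertile (colour), for each library. Low-low cells are the red points at the left: in library 3 they lie at 2186 CPM for the S list, and in all libraries their median UMI count is close to that of the other cells of the lowest G2/M tertile.

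Promoters of the S list were searched for the letters that E2F factors are known to bind. The list was chosen as replication genes, so its letters describe the list and not low-low cells. Of the 31 genes, 24 had a promoter, and 10 of these (41.7%) held at least 1 of the E2F sequences TTTCGCGC, TTTGGCGC and TTTCCCGC on either strand, against 4.70% of the genes compared. TTTGAA occurred in 3 of the 24 (12.5%) and CCAAT in 13 (54.2%, against 44.2%). Among promoters of the 30 lower genes, 3 of 24 (12.5%) held an E2F sequence. Windows around the E2F letters of 3 S genes are given for comparison with the mitotic promoters, with the letters in capitals as read along the gene.
Orc1, chr4:108579416-108579445, plus strand: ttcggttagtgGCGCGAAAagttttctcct
Dtl, chr1:191575534-191575563, minus strand: cgtgacgtcagTTTGGCGCggagtttggcg
Cdc6, chr11:98908002-98908031, plus strand: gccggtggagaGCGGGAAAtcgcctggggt

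Genes higher in low-low cells were of another kind. In every library 38 genes were at least 1.5-fold higher, 0.399% of those compared, and they were led by Acta2 and Tagln (smooth muscle actin and an actin-binding protein), Anxa1, Anxa3 and Anxa5 (annexins), Phlda1, Krt8 and Krt18 (keratins of simple epithelia), Cald1 (an actin and myosin regulator) and Ccn1 (a matricellular protein). Of the 38 genes, 7 (Acta2, Anxa1, Anxa3, Camk2d, Ccn1, Jun and 2200002D01Rik) reached 500 counts in every library only with the counts of the low-low cells, so their direction was in part fixed by the filter. The count was 74 without library 1, 88 without library 2, 15 with split UMIs and 3 after leaving out cells with no Pou5f1 UMI or with 10 or more Krt8 and Krt18 UMIs, where Anxa1, Phlda1 and Ccn1 were lower in at least 1 library, by log2 ratios down to -0.30, -0.0020 and -1.02. Acta2 stood at 80.0, 36.1, 1035 and 143 CPM in low-low cells against 0.209, 0.656, 35.4 and 4.86 CPM. Krt8 stood at 80.1, 40.2, 1176 and 264 CPM against 17.9, 11.0, 148 and 58.6 CPM. Tagln stood at 147, 68.7, 1848 and 480.0 CPM against 14.3, 11.4, 151 and 85.1 CPM. Library 3 was the highest of the low-low sums for all 3 genes, and its other cells were also above those of the remaining libraries. Of the 38, 3 were of the keratin list (3 of its 3 genes with enough counts), 3 were of the contractile list (3 of 7, Acta2 among them), and Cdkn2a was the 1 CDK inhibitor.

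**Figure D3:**
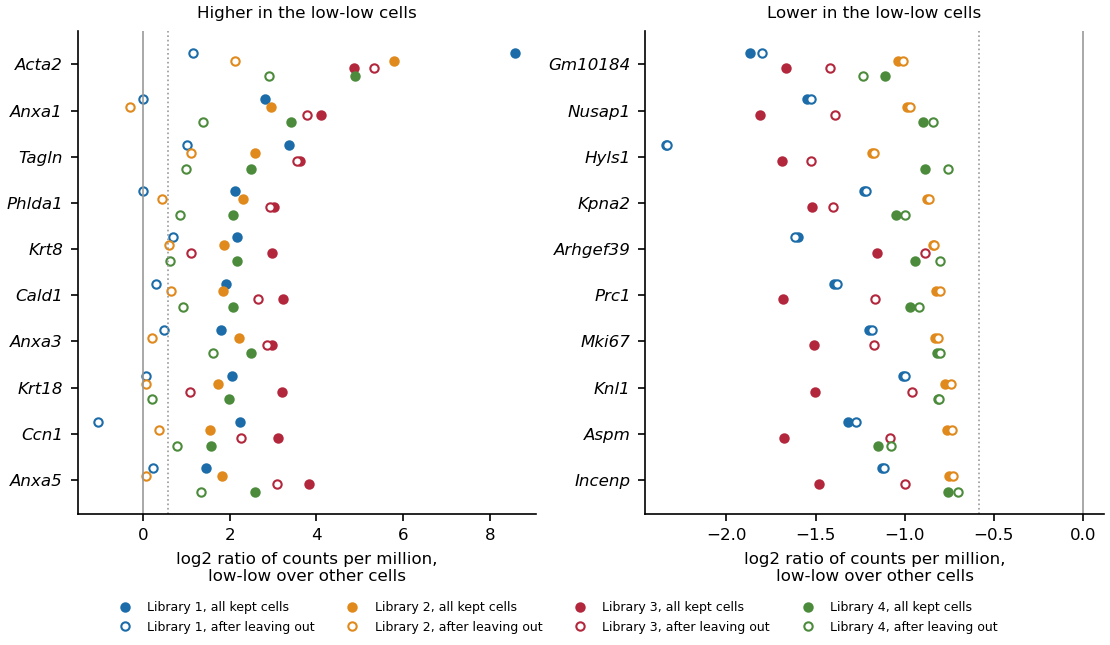
Log2 ratio of CPM in low-low over other cells for the 10 genes with the greatest smallest change in each direction, in each library (colour), over all kept cells (filled) and after leaving out cells with no Pou5f1 UMI or with 10 or more Krt8 and Krt18 UMIs (open). The dotted line marks 1.5-fold. Filled and open points nearly coincide in the right panel for libraries 1, 2 and 4, and the open points of the left panel lie mostly nearer 0.

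Acta2 UMIs were held by a few cells in libraries 1 and 2 and were more widely spread in libraries 4 and 3. In library 1, 11 of the 545 low-low cells held all 688 Acta2 UMIs of the low-low cells, the 10 richest held 99.9% of them and 1 cell held 174. In library 2, 10 of 627 cells held all 458. In library 4, 46 of 555 cells held 1590, of which the 10 richest held 72.3%. In library 3 the gene was widespread, with 15634 UMIs in 278 of 768 cells. Krt8 had UMIs in 49, 89, 430 and 230 low-low cells, with the 10 richest holding 81.6, 76.0, 18.3 and 35.0% of them, so in library 4 it was spread over many cells. Not all of the 38 were so concentrated: Btg2, an antiproliferative gene, had UMIs in 152 of 545, 229 of 627, 436 of 768 and 257 of 555 low-low cells, and the 10 richest held 24.5, 22.9, 9.27 and 16.1%. Free RNA in droplets can put single UMIs of such genes into any cell but was not measured here.

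Cells with no UMI of Pou5f1, the Oct4 gene that defines pluripotent cells, were concentrated among low-low cells. They numbered 6 of 545, 6 of 627, 154 of 768 and 10 of 555 low-low cells (1.10, 0.957, 20.1 and 1.80%), against 2 of 7573, 0 of 7887, 20 of 7125 and 7 of 6909 other cells (0.0264, 0, 0.281 and 0.101%). The count of 0 allows a share of up to 0.0468% by the exact binomial interval. Of 205 cells without a Pou5f1 UMI, 176 were low-low cells. Their median depth was 17690, 19567, 15563 and 16189.5 UMIs, above the median of all low-low cells in libraries 1 and 2 and below it in libraries 3 and 4. At a fixed 5000 UMIs per cell the shares without Pou5f1 were 3.12, 3.35, 34.6 and 7.75% against 1.73, 2.21, 4.45 and 2.23%. These cells were picked out after their values were seen, and what follows on them is a description.

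Low-low cells without Pou5f1 were high in Vim, Acta2 and Krt8 in every library, as sums over their cells. Vim, the intermediate filament of mesenchymal cells, summed to 5859, 2807, 4143 and 1222 CPM in them, against 166, 149, 115 and 78.0 CPM in cells that were neither low-low nor keratin-rich nor without Pou5f1. Krt8 was at 1760.5, 1204, 2156 and 2709 CPM, and Acta2 at 4009, 1832, 2878 and 620.1 CPM. A list of 8 fibroblast genes summed to 668, 303, 259 and 42.1 CPM, against 1.78, 5.31, 2.16 and 5.84 CPM in the same reference cells. In library 2 only 2 of the 6 cells had at least 10 Krt8 and Krt18 UMIs. Zfp42 (Rex1), a marker of naive pluripotency, was at 9.03, 29.5, 18.4 and 42.1 CPM against 521, 537, 458 and 379 CPM. Library 4 had the lowest Vim and Acta2 and the highest Krt8 of these 4 sums, from 10 cells. No name of a cell type is given to them.

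The same cells had high Cdkn1a and Cdkn2a, the 2 CDK inhibitor genes summed for them, and low levels of both cycle lists. Cdkn1a was at 614, 554, 697 and 559.9 CPM, against 31.1, 26.2, 26.1 and 19.8 CPM in the same reference cells. Cdkn2a, whose 3′ end serves both p16 and p19Arf, was at 740.3, 739, 710.3 and 319 CPM against 6.19, 7.98, 11.6 and 9.34 CPM. Mdm2, the p53 ligase and target, was at 325, 377, 316 and 343 CPM against 32.6, 50.5, 37.0 and 45.2 CPM. Trp53inp1, another p53 target, did not keep 1 direction, at 45.1, 22.2, 121 and 90.3 CPM against 22.2, 33.3, 23.5 and 31.7 CPM. The S list outside the rule was at 397, 473, 601 and 1216 CPM against 3620, 4399, 3648 and 4293 CPM, and the G2/M list at 424, 635, 709.9 and 1312 CPM against 3976, 4141, 3943 and 3955 CPM. Ccnd1, a D cyclin gene, was at 9.03, 7.39, 63.0 and 36.1 CPM against 135, 199, 172 and 181 CPM. Both cycle lists are low in part by choice, since the rule took S-low and G2/M-low cells and the reference leaves them out. Low-low cells that were neither without Pou5f1 nor keratin-rich had the S list at 3423, 3935, 3047 and 3668 CPM. Their G2/M list was at 2177, 2942, 2266 and 2788 CPM. In libraries 1, 2 and 4 the sums of cells without Pou5f1 rest on 6, 6 and 10 cells.

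Keratin-rich low-low cells that kept Pou5f1 had Cdkn1a and S-gene levels between those of cells without Pou5f1 and of other cells. Cells with at least 10 UMIs of Krt8 and Krt18 together made up 3.30, 1.59, 40.5 and 13.9% of low-low cells and 0.766, 0.330, 5.29 and 3.60% of others, at median depths of 19835, 19881, 21015 and 20739 UMIs and of 36776.5, 28406.5, 34054 and 29439 UMIs. Keratin UMIs were not particular to low-low cells: the share was 1.05, 0.591, 9.09 and 6.54% in cells of the lowest S and highest G2/M tertiles, and the keratin list of cells of the lowest S tertile stood at 174, 123 and 51.7 CPM in the lowest, middle and highest G2/M tertiles of library 1 and at 2599.9, 1028 and 575 CPM in those of library 3. Low-low cells with such UMIs and with Pou5f1 (12, 8, 206 and 70 cells) had Pou5f1 at 412, 566, 281 and 552 CPM, Cdkn1a at 142, 104, 256 and 109 CPM and the S list at 1975, 2127, 1864 and 2582 CPM. Not every gene lay between: in library 4 Acta2 was at 746 CPM in them and Tagln at 2571 CPM, against 620.1 and 1367 CPM in cells without Pou5f1. With the split UMIs, cells without Pou5f1 or rich in keratin that were chosen on the first part were chosen again on the second in 81.0, 68.4, 85.2 and 58.8% of cases (of 21, 19, 345 and 85 cells), and the remaining chosen cells in 27.5, 30.1, 30.8 and 26.7%. The repeat rate of keratin-rich cells that kept Pou5f1 was not computed apart.

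**Figure D4:**
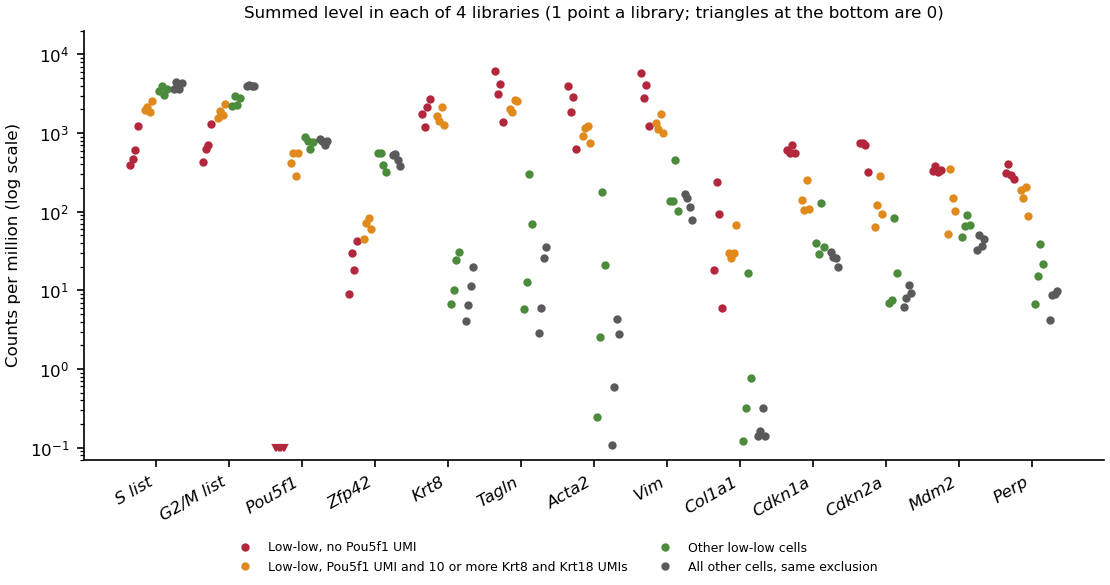
Summed CPM (log axis, 1 point a library) of the S and G2/M lists outside the rule and of 11 genes in low-low cells without a Pou5f1 UMI (red), low-low cells with Pou5f1 and 10 or more Krt8 and Krt18 UMIs (orange), the other low-low cells (green) and all other cells under the same exclusion (grey). Triangles mark 0, which holds for Pou5f1 by choice of the cells. Red points of the S and G2/M lists lie below all others, and the green Acta2 points lie at 0.243, 2.58, 176 and 21.1 CPM.

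Leaving out every cell without a Pou5f1 UMI or with at least 10 Krt8 and Krt18 UMIs removed 1189 cells, of which 472 were low-low cells (18, 14, 360 and 80). The low-low cells that stayed (527, 613, 408 and 475) were lower in G2/M genes. After the exclusion 24 genes were 1.5-fold lower in every library (0.256% of 9386), of which 22 were among the 30 above, and 3 were 1.5-fold higher (0.032%). Such counts do not show how close the cells were within 1 library. The contractile list then had log2 ratios of -0.17, -0.06, 1.85 and 0.29, and the CDK inhibitor list 0.08, 0.03, 1.58 and 0.36. Matched on UMI count as well, 7 were 1.5-fold lower (0.0746%) and 0 of 9386 higher. The G2/M list had log2 ratios of -0.87, -0.49, -0.80 and -0.50 and the S list -0.08, -0.16, -0.26 and -0.23. The 3 higher genes were Perp, S100a13 and Krt8, all among the 38. Cells were left out on Krt8 UMIs, so its level here is in part set by the exclusion. With other cells of the lowest G2/M tertile as reference, Krt8 had log2 ratios of 0.72, 0.28, 0.97 and 0.33. Perp, a p53 target of desmosomes, stood at 6.69, 15.3, 38.5 and 21.5 CPM against 4.25, 8.77, 9.07 and 9.96 CPM, and S100a13, a calcium-binding protein, at 8.14, 9.77, 12.1 and 25.0 CPM against 4.70, 4.85, 7.96 and 6.74 CPM. In library 3 the remaining low-low cells still had Acta2 at 176 CPM against 4.34 CPM and the fibroblast list 4.20 higher on the log2 scale, although no gene of that list had 500 counts in every library.

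**Figure D5:**
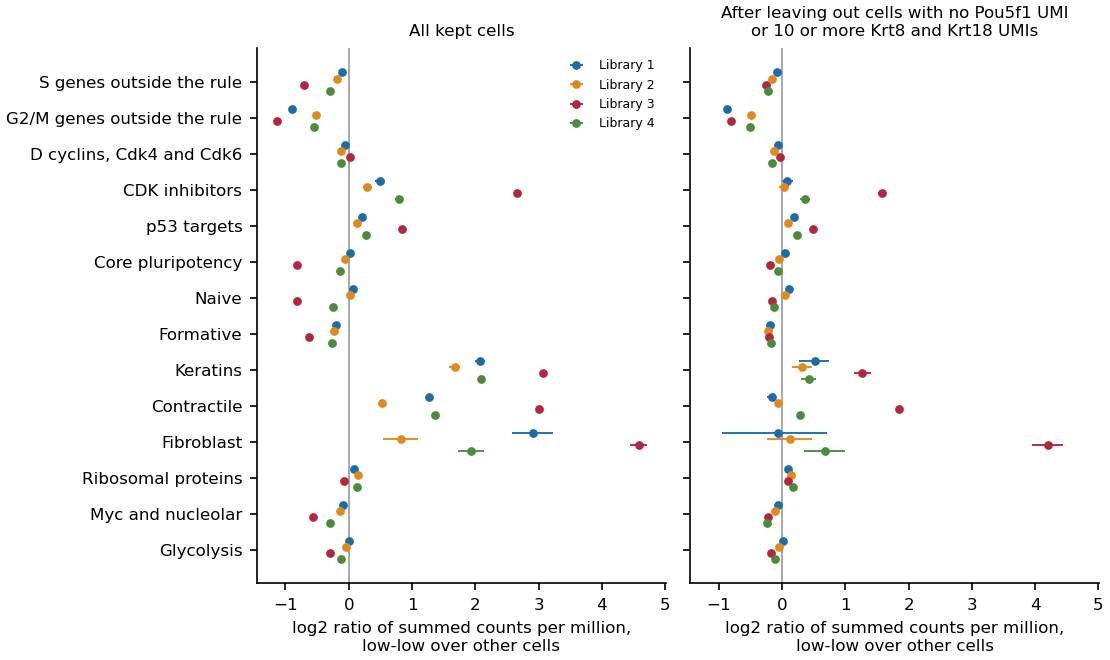
Log2 ratio of the summed CPM of 14 gene lists in low-low over other cells, by library (colour), with 95% counting intervals, over all kept cells (left) and after the exclusion (right). The G2/M list lies between -1.14 and -0.51 at left and between -0.87 and -0.49 at right, and the keratin list, on which cells were left out, falls from 2.07, 1.67, 3.08 and 2.09 at left to 0.51, 0.32, 1.27 and 0.42 at right.

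p53 target genes were modestly higher in low-low cells. A list of 13 summed to 1002, 1181, 1732 and 1225 CPM against 864, 1081, 965 and 1011 CPM (log2 ratio 0.21, 0.13, 0.84 and 0.28). None of its 11 genes with enough counts was 1.5-fold higher in every library, 6 were higher by at least 0.32 on the log2 scale (background 1.3%) and 8 were higher by any amount (background 14.3%). After the exclusion the ratios were 0.18, 0.10, 0.49 and 0.23, with 9 of 11 higher by any amount (10.1%) and 2, Mdm2 and Trp53inp1, by at least 0.32 (0.341%). In these remaining cells Mdm2 stood at 47.4, 65.4, 90.8 and 67.1 CPM against 32.6, 50.5, 37.0 and 45.2 CPM, with log2 ratios of 0.54, 0.37, 1.29 and 0.57. Trp53inp1, a p53 target of cell death and autophagy, had log2 ratios of 0.65, 0.54, 1.09 and 0.69. Against other cells matched on UMI count, Mdm2 differed by 0.29, 0.21, 1.10 and 0.47 and Trp53inp1 by 0.30, 0.36, 0.82 and 0.52, and no list gene then passed 0.32 in every library (background 0.0959%). Bax, a p53 target of apoptosis, was higher only by small amounts, with log2 ratios of 0.06, 0.01, 0.06 and 0.04 after the exclusion.

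Other genes that restrain proliferation varied. Btg2, which p53 also drives, stood at 31.7, 41.7, 114 and 59.9 CPM against 15.5, 25.7, 22.3 and 29.1 CPM over all kept cells, and its log2 ratios were 0.89, 0.42, 1.49 and 0.72 after the exclusion. Plk2, a polo-like kinase induced by p53 and stress, had 1.30, 0.50, 2.56 and 1.09 there. Matched on UMI count as well, Btg2 had 0.48, 0.18, 1.23 and 0.57 and Plk2 had 0.70, 0.25, 2.12 and 0.90. Against other cells of the lowest G2/M tertile after the exclusion, Btg2 had 0.67, 0.15, 1.27 and 0.39. Plk2 had 1.19, 0.18, 2.45 and 0.70 there, and Cdkn1a had 0.22, 0.00016, 2.36 and 0.43. Of the CDK inhibitor list, Cdkn1a had log2 ratios of 0.70, 0.44, 3.16 and 1.38 over all kept cells and 0.37, 0.16, 2.32 and 0.85 after the exclusion, and 0.10, 0.02, 2.23 and 0.76 when also matched on UMI count. Cdkn2a went from 1.55, 1.05, 4.03 and 1.76 to 0.16, -0.09, 2.85 and 0.81. Cdkn1b (p27) went the other way, at 23.0, 13.1, 14.1 and 14.6 CPM against 26.7, 17.5, 21.2 and 18.7 CPM. In libraries 1 and 2 Cdkn2a thus differed little from other cells once those cells were left out.

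Of the D cyclins, Cdk4 and Cdk6, only Ccnd1 was lower in every library. It stood at 106, 149, 114 and 137 CPM against 136, 199, 169 and 179 CPM, with log2 ratios of -0.35, -0.42, -0.57 and -0.39, or -0.20, -0.39, -0.52 and -0.36 against cells matched on UMI count. Cdk4, its kinase partner, stood at 487, 344, 438 and 316 CPM against 483, 345, 441 and 322 CPM. The list of 3 D cyclins with Cdk4 and Cdk6 had log2 ratios of -0.06, -0.13, 0.02 and -0.12, and 1 of its 5 genes was lower in every library, where 31.1% of all genes compared were so. Ccnd2 stood at 6.86, 15.2, 59.3 and 18.6 CPM against 6.86, 15.8, 8.47 and 10.2 CPM, higher in libraries 3 and 4 by 2.81 and 0.88 on the log2 scale.

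Pluripotency transcripts were lower in low-low cells of libraries 3 and 4 and nearer those of other cells after the exclusion, which itself removes cells without Pou5f1 and so moves the core list by construction. The core list (Pou5f1, Sox2 and Sall4) had log2 ratios of 0.01, -0.06, -0.81 and -0.15 over all kept cells and of 0.05, -0.04, -0.18 and -0.06 after the exclusion. The naive list of 10 had 0.07, 0.03, -0.82 and -0.25, and then 0.11, 0.05, -0.17 and -0.13. Nanog, for one, went from 156, 128, 51.7 and 44.2 CPM against 154, 130.1, 108 and 63.1 CPM to 162, 131, 95.2 and 50.8 CPM against 156, 131, 115 and 65.4 CPM. The formative list was lower in every library, at 696, 1071, 618 and 1425 CPM against 804, 1258, 956 and 1712 CPM, and its ratios after the exclusion were -0.19, -0.21, -0.21 and -0.18. Its Dnmt3b, a de novo DNA methyltransferase, had log2 ratios of -0.61, -0.34, -0.31 and -0.32 then, and of -0.35, -0.27, -0.14 and -0.28 when also matched on UMI count.

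Ribosomal protein genes differed by small amounts in every library, and nucleolar genes differed most in library 3 over all kept cells. Cytosolic ribosomal protein genes summed to 305873, 282438, 260461 and 293091 CPM in low-low cells against 287600.0, 256429, 273803 and 267022 CPM in other cells, lower in library 3 and higher in the remaining libraries. Of the 78 genes with enough counts, 13 were higher in every library by any amount, against 14.3% of all genes compared. After the exclusion, 69 of the 78 were so, against 10.1% of all genes compared, with log2 ratios of the sum of 0.10, 0.15, 0.10 and 0.17, and 62 of 78 were so against cells matched on UMI count (background 9.21%). Myc, Mycn and 13 genes of nucleolar ribosome assembly had ratios of -0.10, -0.13, -0.57 and -0.29 over all kept cells and of -0.07, -0.11, -0.23 and -0.24 after the exclusion, where 11 of the 15 were lower in every library (background 33.6%). Both levels are shares of a total that other genes also fill, so a higher share need not be more transcripts per cell.

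The targeted gene Srrm2 (GRCm38 chr17:23790532-23824741, plus strand) was at 351, 471, 217 and 304 CPM in low-low cells and at 389, 537, 239.8 and 359 CPM in other cells, a log2 ratio of -0.15, -0.19, -0.15 and -0.24. Low-low cells did not reorder the libraries by Srrm2. Because no library carries a genotype, whether low-low cells are more common in WT or in Srrm2 hKO cultures was not tested.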

How the data were processed

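Whole cells were profiled with Chromium 3′ v3 chemistry. The authors aligned reads to mm10 with Cell Ranger 6.1.2, counted UMIs per gene and barcode and joined 4 libraries, with reads subsampled to similar depth. The deposited values are raw UMI counts of 32285 genes in 41142 barcodes, and no strand or paralog correction was applied here. Per library, cells were kept with UMIs and genes each at or above the mean minus 1 SD and at most 10% mitochondrial UMIs. Kept cells held 8604030 to 15098200 UMIs as low-low sums and 157309000 to 187508000 as sums of other cells, so that 3 counts, the floor taken for a count of 0, equal 0.199 to 0.349 and 0.0160 to 0.0191 CPM.

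Counts were summed over cells, with Python 3.11.15, numpy 2.4.6 and scipy 1.17.1, and scaled to CPM. Log2 ratios have exact conditional 95% intervals and shares have Clopper-Pearson intervals. Of genes with at least 500 counts per library, rule genes apart, those at least 1.5-fold higher in all 4 libraries, or lower in all 4, were counted. Against UMI-matched cells, other cells were weighted by UMI decile. Named genes are the 17 rule genes, Srrm2, members of 35 lists and the 10 per direction with the greatest smallest change. Members and lists were chosen with earlier results of these data known. No doublet caller was used, and cells above 2 times the median UMI count were left out in an alternative. The counting of genes was tested on simulated sums with known 2-fold changes. The choice of cells and UMIs held by a few cells were not simulated. Gene coordinates are GENCODE M21 (GRCm38), and promoters are from RefSeq (GRCm38.p6). Promoters of 6 of the lower genes were not analysed. Perp, S100a13, Plk2 and the further genes of the 30 and the 38 were named after their values were seen.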

Additional observations from a re-analysis of the deposited data

How the results depend on the processing

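Values here are medians over the 4 libraries. The S list was at -0.24 on the log2 scale. It was not below 0 in every library against cells of the lowest S and highest G2/M tertiles, which were also chosen for a low S share. In the settings given here it stayed below 0: -0.092 with membership at 5000 UMIs per cell, -0.34 with the lowest quartile, -0.26 with limits within UMI deciles, -0.25 against depth-matched cells, -0.18 with size factors, -0.25 as a mean over cells, -0.20 without keratin-rich cells, -0.18 with split UMIs, -0.29 to -0.18 without 1 library, and, in settings chosen after seeing the data, -0.19 after the exclusion and -0.39 against the lowest G2/M tertile only. In the same order the G2/M list (-0.73) gave -0.57, -0.87, -0.54, -0.60, -0.67, -0.71, -0.69, -0.65, -0.90 to -0.55, -0.65 and -0.14.

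The naive list (-0.11) gave -0.18 with the lowest quartile, -0.051 with size factors, -0.047 without keratin-rich cells, -0.25 to 0.026 without 1 library (0.026 without library 3 or 4), -0.042 after the exclusion and 0.0013 against the lowest G2/M tertile. The formative list (-0.25) gave -0.13 at 5000 UMIs, -0.39 with the lowest quartile, -0.30 without cells above 2 times the median UMI count, -0.19 with size factors, -0.29 as a mean over cells, -0.21 without keratin-rich cells and -0.20 after the exclusion. Low-low cells numbered 3969 at 5000 UMIs and 1496 with the lowest quartile. The depth ratio of 0.823 became 0.868 and, within deciles, 0.983. Cells tied at a limit counted as low-low cells, and how many were tied at 5000 UMIs was not counted.

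Of genes 1.5-fold higher (38), 24 were counted at 5000 UMIs, 104 with the lowest quartile, 6 without keratin-rich cells, 15 with split UMIs, 77 at 200 counts, 448 with no count filter, 124 past 0.32 on the log2 scale, 16 at 2-fold, 3 after the exclusion and 9 against the lowest G2/M tertile. Without 1 library the count was 38 to 88 (74 without library 1, 88 without library 2). Of genes lower (30), 4 were counted at 5000 UMIs, 5 within deciles, 13 against depth-matched cells, 19 with size factors, 13 with split UMIs, 47 with no count filter, 164 past 0.32, 1 at 2-fold and 1 against the lowest G2/M tertile, and 30 to 48 without 1 library (48 without library 2).

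The least change of Anxa1 turned to -0.30 after the exclusion, that of Phlda1 to -0.0019 without keratin-rich cells and -0.0020 after the exclusion, and that of Ccn1 to -1.03 and -1.02. Against the lowest G2/M tertile the least changes turned to 0.056 for Nusap1, 0.16 for Hyls1, 0.065 for Kpna2, 0.29 for Arhgef39 and 0.089 for Prc1. The cause was not tested. No paired analysis was possible because library numbers are not tied to the labelled replicates. Depth limits membership: a cell's place rested on a median of 12.5 to 28 UMIs per gene set.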

Other observations

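A list of 13 genes of the two-cell-like state (Zscan4, Usp17l and Tcstv genes and Zfp352), which marks a rare state of embryonic stem cells, gave 11, 46, 47 and 5 UMIs in low-low cells of libraries 1 to 4 and 84, 100, 174 and 81 UMIs in other cells. The levels were 1.28, 3.63, 3.11 and 0.450 CPM against 0.531, 0.533, 1.11 and 0.497 CPM. Log2 ratios with 95% counting intervals were 1.27 (0.21 to 2.18), 2.77 (2.23 to 3.28), 1.49 (1.00 to 1.97) and -0.14 (-1.80 to 1.14), and after the exclusion 1.31, 2.79, -0.49 and -1.25. The families hold near-identical copies that can share reads, and UMIs of 1 cell are not independent.

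Markers of primitive endoderm were at low levels, with 19, 40, 397 and 98 UMIs of 7 genes (2.21, 3.16, 26.3 and 8.82 CPM) against 1.52, 1.51, 2.89 and 3.52 CPM in other cells. The log2 ratios were 0.54 (95% interval -0.22 to 1.22), 1.06 (0.54 to 1.54), 3.19 (2.99 to 3.39) and 1.32 (1.00 to 1.64), and after the exclusion -0.45 (-1.60 to 0.50), 0.77 (0.17 to 1.31), 1.90 (1.45 to 2.33) and 0.41 (-0.10 to 0.88). None of the 7 reached 500 counts in every library. Transcripts of replication-dependent histone genes, most of which lack the poly(A) tail on which this chemistry primes, were at 1226, 1876, 1169 and 3014 CPM against 1266, 1713, 1746 and 3052 CPM.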
